A study of Homo sapiens with 8 samples.

Results

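In HCT-116 cells, 1994 CUT&RUN peaks of Flag-tagged actin lay at the ends of protein-coding genes, and they are described here gene by gene. They were chosen by position in the list of the control library. Each had to overlap no peak of either IgG list by even 1 bp, to have its midpoint no more than 1 kb from an end of a RefSeq protein-coding gene, and to lie more than 5 Mb from both chromosome ends. The control list held 38778 peaks on chromosomes 1 to 22 and X, of which 17829 met the IgG and chromosome-end conditions, and the 1994 were 11.2% of those. The 8 lists of the series held 254950 peaks in all. The choice used the control list and the IgG lists, so the number, positions and signal of these peaks in the control list are a description and no test was made on them.

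Actin is best known as the protein of cytoplasmic filaments, but monomeric actin also enters the nucleus, where it is a subunit of several chromatin remodelling complexes and has been linked to transcription by the RNA polymerases. BRG1, encoded by SMARCA4, is an ATPase of the SWI/SNF remodellers, whose complexes contain actin and an actin-related protein, and it is commonly found at promoters and enhancers. SETD3 is the enzyme that methylates a histidine of actin. The 5′ end of a gene holds its transcription start and promoter, and the 3′ end holds the site where the transcript is cleaved and polyadenylated.

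The cells were HCT-116, a human colorectal carcinoma line, and CUT&RUN releases DNA around an antibody's target with a tethered nuclease. The Flag arm consisted of 1 library of control cells with Flag-tagged wild type actin and 2 libraries of SETD3 knockout cells, KO1 and KO2. The BRG1 arm had the same 3 groups, and each of 2 IgG libraries came from control cells, 1 with the words Flag and Empty in its title and 1 whose title names no arm. Whether the KO1 and KO2 libraries came from different clones or cultures is not stated, nor whether the cells of the Empty IgG library carried the actin construct or how the construct was expressed, and no library was repeated. With 1 control library, no test between control and knockout is possible; intervals below are exact 95% binomial intervals that cover counting error only, and reads amplified by PCR are not independent molecules.

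The promoters of 6 genes show what lay under these peaks. Each sequence is the RefSeq window of build GRCh38.p14 from 250 bases before to 50 bases after the annotated start, written 5′ to 3′ on the gene's strand, with the bases inside the peak in capitals. The first 3 peaks were also in both knockout lists and in the BRG1 control list, the fourth was shared with the BRG1 control list only, and the last 2 were in the Flag-actin control list alone. IQGAP1 lay at chr15:90387992-90388291 (+), AUTS2 at chr7:69598225-69598524 (+), NR5A1 at chr9:124507350-124507649 (-), DHX40 at chr17:59565360-59565659 (+), ESYT3 at chr3:138434366-138434665 (+) and RASGRF2 at chr5:80960113-80960412 (+). AUTS2 and ESYT3 were added to the genes named by rule after their values were seen.
IQGAP1: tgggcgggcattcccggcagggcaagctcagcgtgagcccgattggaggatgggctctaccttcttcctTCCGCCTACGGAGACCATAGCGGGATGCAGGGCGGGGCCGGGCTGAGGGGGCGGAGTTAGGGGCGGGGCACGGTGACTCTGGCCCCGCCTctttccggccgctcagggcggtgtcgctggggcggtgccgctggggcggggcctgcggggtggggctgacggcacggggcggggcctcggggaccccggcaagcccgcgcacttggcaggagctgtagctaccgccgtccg
AUTS2: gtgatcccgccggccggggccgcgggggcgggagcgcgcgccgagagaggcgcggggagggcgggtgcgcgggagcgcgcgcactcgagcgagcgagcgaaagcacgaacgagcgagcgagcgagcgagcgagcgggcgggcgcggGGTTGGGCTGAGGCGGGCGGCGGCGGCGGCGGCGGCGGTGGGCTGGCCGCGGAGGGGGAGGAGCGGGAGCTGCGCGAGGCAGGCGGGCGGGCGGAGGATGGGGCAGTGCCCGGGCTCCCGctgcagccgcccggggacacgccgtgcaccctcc
NR5A1: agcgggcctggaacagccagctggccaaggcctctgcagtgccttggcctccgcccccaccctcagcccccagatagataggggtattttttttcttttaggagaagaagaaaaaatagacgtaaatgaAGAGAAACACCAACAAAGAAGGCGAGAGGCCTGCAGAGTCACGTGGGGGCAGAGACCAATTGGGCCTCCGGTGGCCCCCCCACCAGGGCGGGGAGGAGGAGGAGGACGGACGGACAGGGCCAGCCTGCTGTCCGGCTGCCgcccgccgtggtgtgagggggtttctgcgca
DHX40: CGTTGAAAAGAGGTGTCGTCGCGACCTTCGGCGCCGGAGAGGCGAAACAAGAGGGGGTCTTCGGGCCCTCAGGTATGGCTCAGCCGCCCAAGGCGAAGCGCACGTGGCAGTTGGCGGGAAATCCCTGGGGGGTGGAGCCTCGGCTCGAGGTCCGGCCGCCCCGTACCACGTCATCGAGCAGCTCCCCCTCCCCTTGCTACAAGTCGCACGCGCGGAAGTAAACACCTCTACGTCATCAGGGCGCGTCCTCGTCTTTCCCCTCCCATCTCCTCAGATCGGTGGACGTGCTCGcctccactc
ESYT3: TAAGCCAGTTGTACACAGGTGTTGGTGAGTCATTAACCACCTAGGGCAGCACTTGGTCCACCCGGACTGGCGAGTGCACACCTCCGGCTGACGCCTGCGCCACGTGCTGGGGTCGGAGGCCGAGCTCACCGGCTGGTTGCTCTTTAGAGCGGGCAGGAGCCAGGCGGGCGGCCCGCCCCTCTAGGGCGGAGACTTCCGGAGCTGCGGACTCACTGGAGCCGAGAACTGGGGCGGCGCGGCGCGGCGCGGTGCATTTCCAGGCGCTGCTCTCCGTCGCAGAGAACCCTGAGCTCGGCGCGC
RASGRF2: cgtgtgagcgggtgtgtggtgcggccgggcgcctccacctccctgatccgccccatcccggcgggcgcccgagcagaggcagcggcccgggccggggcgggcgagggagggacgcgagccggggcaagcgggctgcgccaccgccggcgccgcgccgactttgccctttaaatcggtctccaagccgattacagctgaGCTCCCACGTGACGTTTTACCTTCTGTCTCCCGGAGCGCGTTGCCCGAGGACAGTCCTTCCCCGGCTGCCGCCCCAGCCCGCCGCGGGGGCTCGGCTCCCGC
The peak covered 90 bases of the IQGAP1 window, 120 of AUTS2 and 140 of NR5A1, each in 1 block within the window. It covered 291 bases of DHX40, all 300 of ESYT3 and 102 of RASGRF2, where it ran on into the gene. GC content was 74% at IQGAP1, 82.3% at AUTS2, 61.7% at NR5A1, 65.3% at DHX40, 68.3% at ESYT3 and 74.7% at RASGRF2.

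The deposited lists give a total and a maximum signal for each peak but no read depth. Peaks in the Flag-actin control list were called at a threshold of 0.01 and those of the IgG lists at 0.005, as the names of the lists state. Of the control peaks on the chromosomes used, 34.3% overlapped an IgG peak, against 55.3% in Flag-actin KO1 and 48.3% in KO2. Signal scales differ between lists: the smallest step between maximum signals was 21.5 in the Flag-actin control, 9.69 in KO1 and 8.40 in KO2. Signal is therefore compared between lists only as a percentile, the share of a list's peaks with the same or a lower total signal.

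Flag-actin peaks at gene starts were displaced into the gene, while BRG1 peaks sat on and before the start. Strand is known for part of the genes: 935 of the 1994 peaks lay near starts only, 534 near transcript ends only, 66 near both kinds, and 459 near genes of unknown strand. Among pairs of a peak and a start, 738 of 1092 midpoints (67.6%, interval 64.7 to 70.4) lay inside the gene, with a median of 247.5 bp downstream of the start. The bin from 200 to 400 bp downstream was the fullest, with 217 pairs (19.9%). By the same rule, 37.1% of 5082 BRG1 control pairs (35.8 to 38.5) lay inside the gene, with a median 66 bp upstream, and 37.3% fell in the 200 bp before the start. Flag-actin KO1 and KO2 lay between these, with 56.1% of 321 pairs (50.5 to 61.6) and 59.7% of 655 pairs (55.8 to 63.5) inside and medians of 86 and 123 bp downstream. Median widths were 290 bp for the control peaks, 100 bp in KO1, 160 bp in KO2 and 260 bp for BRG1 control, and the part of width in these positions was not tested.

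Around transcript ends the Flag-actin peaks were sparse on the end itself. There 33 of 664 pairs (4.97%) fell in the last 200 bp before the annotated end and 36 (5.42%) in the 200 bp after it, and 57.4% lay inside the gene. A low bin beside the end was not particular to this list. The bin before the end was also the emptiest for BRG1 control (6.45%), BRG1 KO2 (4.13%) and Flag-actin KO2 (7.1%). After the end these lists held 9.53%, 9.92% and 8.47%. For the KO1 library of each arm the emptiest bin was the one after the end (6.25% for Flag-actin, 3.57% for BRG1). Among peaks near 1 kind of end, starts made up 63.6% (61.1 to 66.1) in the Flag-actin control, 63.3% in KO1 and 64.3% in KO2, against 90.5% (89.6 to 91.3) in BRG1 control. Counted by ends, the Flag-actin control list held 1026 of 13871 starts (7.40%) and 618 of 13868 transcript ends (4.46%), while BRG1 control held 29.4% of starts and 4.29% of ends. The 2 lists thus held like shares of transcript ends, and the Flag-actin control fewer starts.

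**Figure D1:**
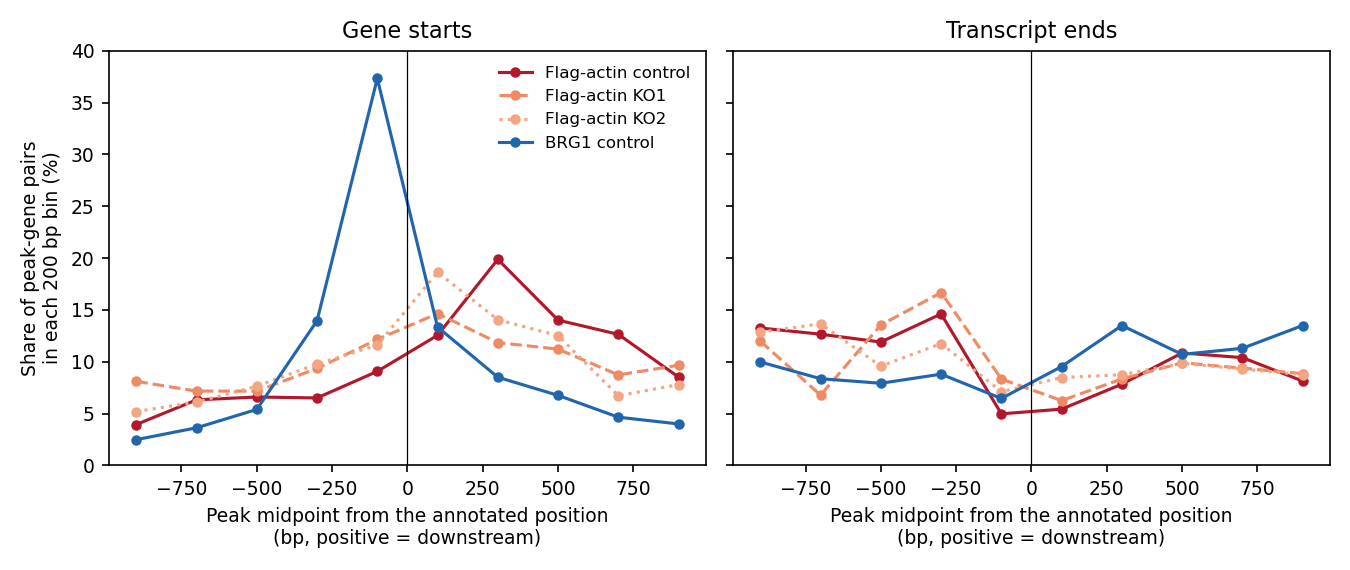
Share of peak and gene-end pairs (y axis, %) by distance of the peak midpoint from the annotated start or transcript end (x axis, bp, 200-bp bins), 1 line per list. The Flag-actin control is highest 200 to 400 bp downstream of starts (19.9%), BRG1 control in the 200 bp before the start (37.3%), and the Flag-actin control is low on both sides of the transcript end (4.97% and 5.42%). Among the transcript-end bins, BRG1 control is also lowest in the 200 bp before the end (6.45%).

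The peaks were of moderate width and mostly of modest height. Widths ran from 30 to 900 bp, with quartiles at 230 and 360 bp around a median of 290 bp. The control peaks that met the other conditions but lay away from gene ends had a median of 270 bp. Total signal ran from 25771.1 to 923681 with a median of 30710.7. The median maximum was 10 steps and the median percentile 37.6, against 10 steps and 33.1 for the peaks away from gene ends. Most peaks at gene ends were thus in the lower part of the control list by signal, as were eligible peaks away from them. The ranking is over the whole list, with the peaks that overlap IgG, and without the IgG condition the median percentile at gene ends was 44.97.

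The peaks at TBX4, IQGAP1 and CSH2 stood apart from the rest by signal. The highest, 200 bp at chr17:61451331-61451530, lay 991 bp upstream of TBX4, a T-box transcription factor of hindlimb and lung development. Its total signal was 923681, at percentile 98.8 of the control list. The second was 90 bp wide at chr15:90388061-90388150, 136 bp upstream of IQGAP1, a scaffold that binds actin filaments and the GTPases RAC1 and CDC42, with 672412. The third, 170 bp at chr17:63872041-63872210, lay 114 bp from an end of CSH2, a placental hormone gene, with 309683. CSH2 belongs to the growth hormone cluster of near-identical genes, so the placement of reads among its copies is uncertain.

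The next peaks were lower and wider. The fourth was a 490 bp peak at KIF19, a kinesin motor gene (111460), followed by an 810 bp peak at SAMD14 (104373) and an 880 bp peak shared by CERS1, GDF1 and UPF1 (102870). CERS1 encodes a ceramide synthase, GDF1 a growth factor and UPF1 the helicase of nonsense-mediated decay. GP1BB, a subunit of a platelet receptor, followed with 82682.5, then LOC124905153 with 80534.9. SYPL2, a relative of synaptophysin, had 80320.2 and RASGRF2, an exchange factor for RAS, 78172.5. The widest peak of all, 900 bp, was at CHRNG, a subunit of the muscle acetylcholine receptor, with a total of 53475.1. The narrowest, 30 bp each, included ATRX, a chromatin remodeller on the X chromosome, PHF13, a reader of histone marks, IHO1, a meiotic gene, and SLAMF6, a lymphocyte receptor.

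**Figure D2:**
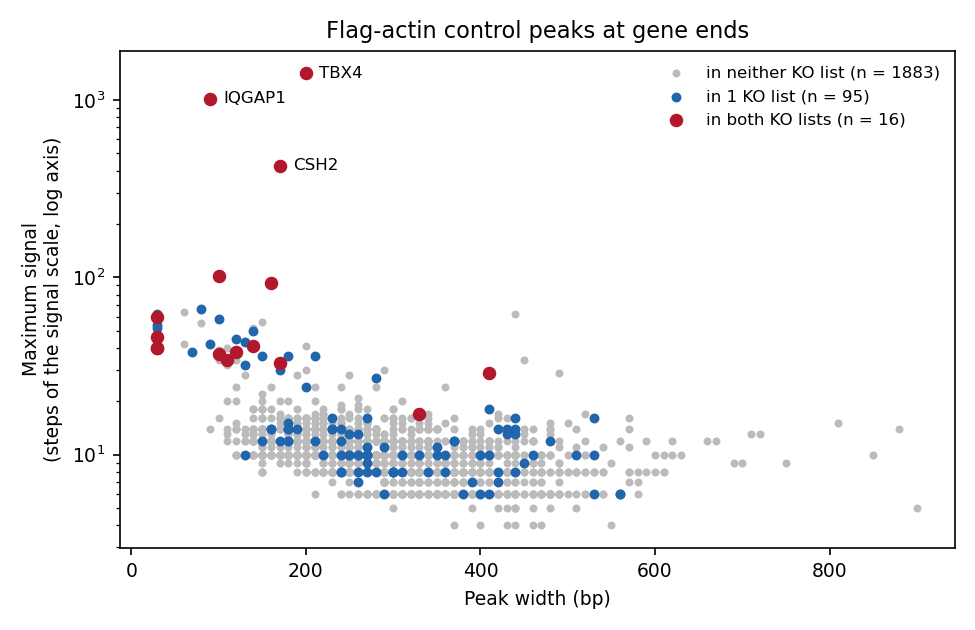
Width (x axis, bp) against maximum signal in steps of the list (y axis, log scale) for the 1994 peaks, coloured by their overlap with the Flag-actin knockout lists. Peaks in both knockout lists are narrow and high, with medians of 115 bp and 40.5 steps, and those in neither have medians of 290 bp and 10 steps.

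Few of the peaks were found in the knockout lists. In KO1, 42 of the 1994 (2.11%, 1.52 to 2.84) overlapped a peak, where 2.74% of all 17829 eligible control peaks did. In KO2 it was 85 (4.26%, 3.42 to 5.24), where 4.6% of all eligible peaks did. The mean over the 2 knockout libraries was 3.18% ± 1.52 (SD, n = 2). Overlap with both was found for 16 peaks (0.802%, 0.459 to 1.30), against 1.28% of all eligible peaks, and overlap with either for 111 (5.57%), against 6.06% of all eligible peaks. Away from gene ends, the shares were 2.82% in KO1, 4.64% in KO2 and 1.35% (1.17 to 1.54) in both. The shares in each knockout list were near those of all eligible control peaks. The IgG condition weighs on these values: without it, 18.7% of the gene-end peaks and 41.3% of those away overlapped a knockout peak, as means over both lists.

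Stronger peaks overlapped the knockout lists more often. Of the 499 with the highest total signal, 3.61% overlapped KO1 and 8.02% KO2, and of the 498 with the lowest, 1.20% and 1.41%. The contrast by width was larger. Of the 24 peaks of at most 100 bp, 10 were in KO1, 12 in KO2 and 7 in both, and 10 were in BRG1 control. The same held away from gene ends, where 36.2% of 555 such narrow peaks overlapped KO1 and 44.7% KO2, 23.8% both and 40.2% BRG1 control. The 16 peaks in both knockout lists had a median width of 115 bp and a median maximum of 40.5 steps, while the 1883 in neither had medians of 290 bp and 10 steps. All 1994 peaks had a total of at least 25771.1, which a narrow peak reaches only with a high maximum. The 30 bp peaks at SLC6A2 and at ATXN7 with THOC7 had this total and a maximum of 40 steps. Width and height are therefore not separate traits here.

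**Figure D3:**
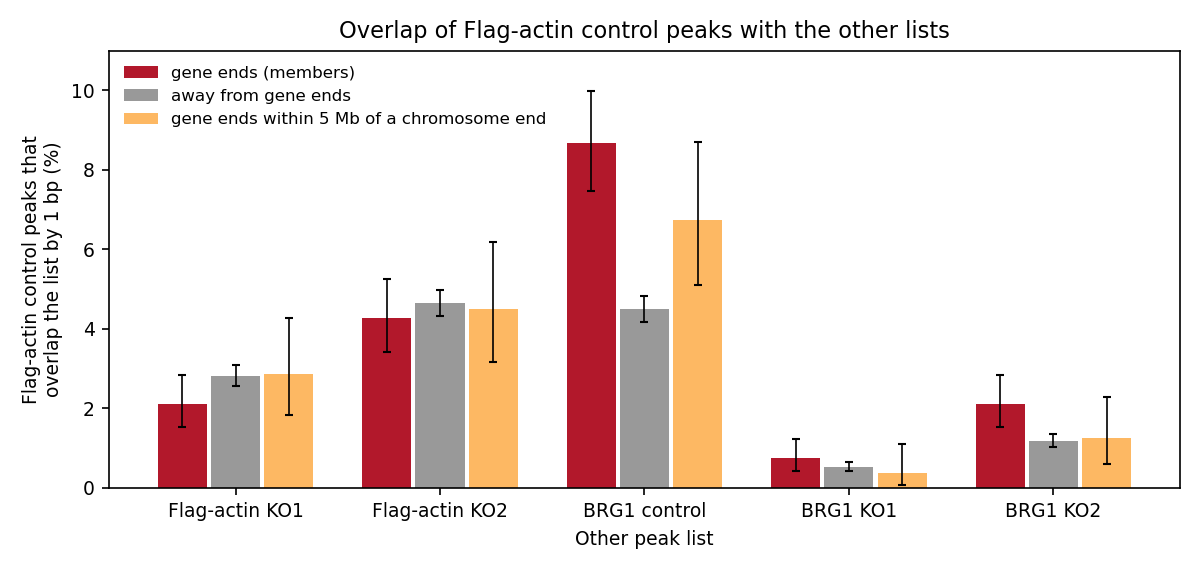
Share of control peaks (y axis, %) that overlap each other antibody list, for the 1994 peaks at gene ends (red), the 15835 away from them (grey) and the 800 at gene ends within 5 Mb of a chromosome end (orange), with exact 95% binomial intervals that cover counting error only. The gene-end peaks are above the others in BRG1 control (8.68% against 4.49%) and close to them in Flag-actin KO1 (2.11% against 2.82%) and KO2 (4.26% against 4.64%).

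The 16 peaks in both knockout lists included the 3 with the highest signal, and the strongest had a like rank in each list. TBX4 was at percentile 98.8 in the control list, 99.1 in KO1 and 99.4 in KO2. IQGAP1 was at 98.3, 97.0 and 98.4, and CSH2 at 96.0, 89.8 and 94.2. All 3 were thus near the top of each Flag-actin list. GP1BB was at 83.6 in the control and lower in the knockouts, at 65.7 and 64.7.

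ACTA1, the skeletal muscle actin gene, held a 100 bp peak at chr1:229431551-229431650, 356 bp inside its transcript end. It was at percentile 69.1 in the control list, 47.6 for KO1 and 73.1 for KO2, and no BRG1 list held a peak there. Actin genes are similar in sequence, and the introduced construct is itself an actin coding sequence, so the origin of reads in this peak is uncertain. POTEH, from a family of near-identical genes that includes actin fusions, held peaks at both ends, of which the start peak (percentile 81.0) overlapped KO1 only and the transcript-end peak (73.9) overlapped KO2 only.

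NR5A1, a nuclear receptor of steroid-producing tissues, held a 140 bp peak 51 bp upstream of its start, at percentile 45.5 in the control list, 50.5 for KO1, 72.1 for KO2 and 26.1 for BRG1 control. PIAS3, a SUMO ligase that inhibits STAT3, was at 74.5, 47.3, 14.6 and 46.1 in the same order. The peak shared by RCE1, a protease of prenylated proteins, and TOP6BL, a meiotic gene, was at 75.3, 24.5, 32.3 and 26.1. The ranks of these 3 varied widely between lists. LOC124900986 and LOC124900940 complete the 10 with the highest mean percentile, and the remaining 6, named after their values were seen, were at AUTS2, ANKRD63, SLC6A2, MCCC1, SLAMF6 and the gene pair ATXN7 and THOC7.

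Peaks at gene ends overlapped the BRG1 control list more often than those elsewhere. Of the 1994, 173 (8.68%, 7.48 to 10.0) overlapped a BRG1 control peak, where 4.96% of all eligible control peaks did and 4.49% (4.17 to 4.82) of those away from gene ends. Counted by overlap of peaks, the excess was at starts: 11.7% of the peaks near starts only (9.67 to 13.9) overlapped BRG1 control and 3.37% (2.01 to 5.28) of those near transcript ends only. In the BRG1 knockout lists the overlaps were 15 peaks in KO1 (0.752%, with 0.544% of all eligible peaks) and 42 in KO2 (2.11%, with 1.28%). The order turned round without the IgG condition, when 23.6% of gene-end peaks and 42.8% of those away overlapped BRG1 control. With an overlap of at least 50% of the shorter peak, the shares were 5.12% and 3.86%.

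BRG1 control peaks are themselves frequent at starts, and measured over starts the difference was small. Measured over transcript ends, where the intervals lay apart, it was larger. Of the 1026 starts with a Flag-actin control peak, 329 (32.1%, 29.2 to 35.0) also had a BRG1 control peak within 1 kb, and of the other starts 29.2% (28.4 to 29.97) did. At transcript ends the shares were 50 of 618 (8.09%, 6.06 to 10.5) and 4.11% (3.78 to 4.47). For the Flag-actin knockouts the contrast was seen at both kinds of end: KO1 had a peak at 4.78% of starts with a control peak and 2.07% of those without, and KO2 at 8.48% and 4.27%. At transcript ends the shares were 3.56% and 1.25% in KO1 and 7.93% and 2.34% in KO2.

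IQGAP1 and MCCC1 were the only genes whose peak overlapped all 5 other antibody lists. At IQGAP1 the BRG1 peak was at percentile 78.7 in control cells, 5.93 for KO1 and 25.1 for KO2, beside the Flag-actin percentiles of 98.3, 97.0 and 98.4. At MCCC1, a mitochondrial carboxylase subunit of leucine breakdown, the percentiles were 56.7 in the Flag-actin control, 8.48 and 11.1 in its knockouts, and 24.4, 33.1 and 66.6 in BRG1 control, KO1 and KO2. The ranks of the 2 genes thus did not follow 1 pattern.

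The other peaks shared with BRG1 control at the highest mean rank lay at genes of several kinds. GPHN, the scaffold of inhibitory synapses, was at percentile 78.4 in Flag-actin control and 81.2 in BRG1 control. DHX32, an RNA helicase gene with its neighbour FANK1, was at 79.4 and 74.3, and DHX40, another helicase of that family, at 80.1 and 71.8. SRSF1, a splicing factor, was at 70.3 and 79.3. KRT16, an epithelial keratin, CDC42EP4, a CDC42 effector, GCSH, of the glycine cleavage system, TENT4A, a poly(A) polymerase, and CYP4F11, a cytochrome P450, completed the 10. None of these 9 peaks overlapped a Flag-actin knockout peak, where 5.57% of the 1994 peaks did, 23 of them among the 173 shared with BRG1 control, and DHX32 with FANK1 was the only one of them in a BRG1 knockout list (KO2, percentile 64.4). KRT16 has close keratin copies on the same chromosome.

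By gene, 1989 of 17327 protein-coding genes with an end in the allowed range (11.5%) held a peak. By the same rule, 3.69% of genes held a gene-end peak in Flag-actin KO1, 7.17% in KO2, 31.2% in BRG1 control, 4.36% in BRG1 KO1 and 12.4% in BRG1 KO2. Of the 1989 genes, 121 (6.08%, 18.9% of the KO1 genes) also held a KO1 peak and 254 (12.8%, 20.5% of the KO2 genes) a KO2 peak. Both knockout lists had a peak at 31 of them (1.56%, 33.0% of the 94 genes held by both). BRG1 control had a peak at 711 (35.7%, 33.6 to 37.9, or 13.2% of the BRG1 genes), and BRG1 KO1 and KO2 at 102 (5.13%) and 262 (13.2%). The knockout peaks at these genes need not overlap the control peak.

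The genes held were spread over many functions, with no family held for the most part. Potassium channels, which set membrane potential in excitable and epithelial cells, were held at 21 of 89 genes (23.6%, 15.2 to 33.8), against 11.5% of all genes, and BRG1 control held 13 of them. The highest was KCNJ2 with a 440 bp peak upstream of its start at percentile 72.6, then KCNH1 at 71.3, KCNK7 at 64.4 and KCNC4 at 63.1. None of these 4 peaks was in another antibody list, to which 14.5% of the 1994 peaks and 9.92% of all eligible peaks belonged. The list of developmental transcription factor families, matched by gene symbol, also takes in WNT ligands and FOXL2NB. It was held at 27 of 152 genes (17.8%, 12.04 to 24.8) and by BRG1 at 25, which is not a share of transcription factors alone. The genes held included TBX4, WNT10B, a secreted ligand, at percentile 78.1, and FOXL2, an ovarian factor that shares its peak with FOXL2NB, at 76.0. HOX genes, which pattern the body axis, were held at 7 of 39, led by HOXB1 (73.2), HOXB5 (65.1) and HOXB9 (51.1). Their share was 17.9% (7.54 to 33.5), an interval that includes the 11.5% of all genes.

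Genes that mark other cell types were also held. Neuron and liver markers had a peak at 7 of 26 (26.9%, 11.6 to 47.8), among them APOA1, an apolipoprotein of liver (52.1), SNAP25, a synaptic protein (41.3), and MAPT, the neuronal tau protein (39.2). BRG1 control held 1 of the 26, and neither Flag-actin knockout list held any, a 0 that allows a share of up to 11.5%. Of all genes, KO1 held 3.69%, KO2 7.17% and BRG1 control 31.2%. Here and below, the limit beside a count of 0 is 3 counts of the total, a different bound from the exact intervals. Fibroblast and immune markers were held at 4 of 24, FCGR3A, CD14, CD79B and PDGFRB, where BRG1 control held 0, which allows up to 12.5%. Those 4 are 16.7% (4.74 to 37.4), an interval that includes the Flag-actin control share of all genes, 11.5%. Expression of these genes was not measured here.

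Most housekeeping families stood near the share of all genes in the Flag-actin control and above it in BRG1 control. Cytosolic ribosomal proteins were held at 8 of 74 (10.8%) and by BRG1 at 36, with RPL6 at percentile 69.7. Mitochondrial ribosomal proteins had 9 of 67 and 36, led by MRPL38 (69.1), whose peak was also in KO1. Translation factors had 7 of 70 and 34, with EIF5A (70.6) the highest, and cell cycle genes 8 of 68 and 34, with CDK3 (65.1) and CDKN1B (62.6), an inhibitor of cyclin-dependent kinases. Replication-dependent histones had 6 of 69 and 25, led by H1-5 (67.8). RNA polymerase II subunits had 3 of 12 in both lists (25%, 5.49 to 57.2), an interval that includes the share of all genes in either list. POLR2A, the largest subunit, held a peak 266 bp inside its transcript end at percentile 17.4. Immediate early and AP-1 genes were the extreme: 0 of 28 were held, which allows a share of up to 10.7% by the 3-count limit. The exact interval for this count reaches 12.3% and so includes the 11.5% of all genes. A share below that of all genes is therefore not shown for this list. BRG1 control held 22 of the 28.

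Genes of actin biology and of the remodellers were held at about the share of all genes. Actins and actin regulators had 12 of 90 (13.3%, 7.08 to 22.1) and BRG1 control 39. CORO1B, a coronin that regulates branched filaments, was the highest at percentile 79.2 with a 420 bp peak 589 bp inside the gene. EZR, which links filaments to the membrane, followed at 71.1 and ACTN4, a filament crosslinker, at 61.8, and both of these peaks were also in BRG1 control. Remodeller subunits had 5 of 42, against 22 for BRG1 control, led by DMAP1 (70.3) and SMARCD2, a SWI/SNF subunit (54.6), whose peak was shared with BRG1 control. Integrin and focal adhesion genes had 6 of 44, with ITGB4, the integrin of hemidesmosomes, at 80.8, and cell junction genes 14 of 156, with PCDHB8 at 80.1 and CDH1, the epithelial cadherin, at 70.6. Protocadherin genes have close copies beside them.

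Matrix, transport and metabolic families lay near the share of all genes. Collagens, laminins and matrix genes had 11 of 70 (15.7%), with LAMC1 at 73.2, COL1A1 at 71.0 and FBN1, of elastic microfibrils, at 66.2. Solute carriers had 45 of 341 (13.2%, 9.79 to 17.3), led by SLC6A2, the noradrenaline transporter, at 74.4. Motor proteins had 9 of 81, cytochromes P450 6 of 51, keratins 6 of 55 and Wnt pathway genes 4 of 30, the last being LEF1, LRP5, APC and NKD1. Keratin-associated proteins had 5 of 72 (6.94%, 2.29 to 15.5). Below the share of all genes were zinc finger genes with 25 of 394 (6.35%, 4.15 to 9.22) and olfactory receptors with 6 of 300 (2.00%, 0.737 to 4.30). The highest zinc finger peak was at ZNF717 (82.1), from a family with many similar copies. The median over genes of the best percentile was 41.2 for all genes held, 44.97 for potassium channels and 21.6 for olfactory receptors.

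**Figure D4:**
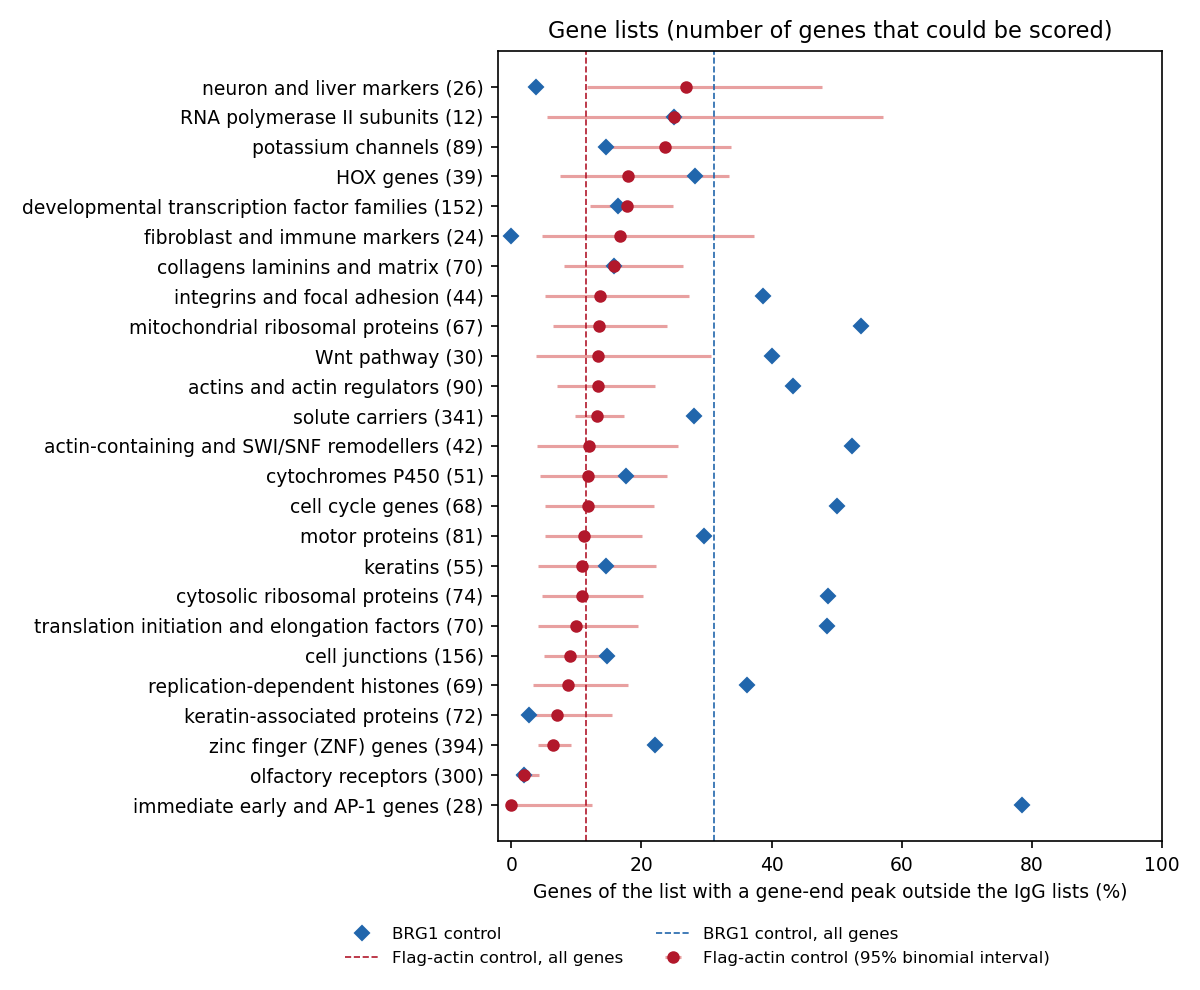
Share of the genes of each of 25 lists (y axis, number of genes that could be scored in brackets) that held a gene-end peak (x axis, %), with red circles for Flag-actin control and exact 95% binomial intervals, blue diamonds for BRG1 control, and dashed lines for all genes (11.5% and 31.2%). Neuron and liver markers are at 26.9% for Flag-actin, potassium channels at 23.6%, and AP-1 genes at 0%, where BRG1 control is highest.

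Promoters under the Flag-actin control peaks were rich in G and C. Of 12753 genes with a promoter window in the RefSeq table, 289 were under a peak, with a median GC content of 67% (quartiles 61.7 and 72.7) and a median of 27 CpG dinucleotides, against 62% and 22 for all windows. The medians were 65.2% in KO1, 65.3% in KO2, 65% in BRG1 control, and 64.3% and 62.7% in the Empty IgG list and the other IgG list, each by the same rule of position. The share of promoters under a Flag-actin control peak rose with GC content, from 3 of 793 (0.378%) at up to 40% GC, through 0.867%, 1.20% and 2.91%, to 106 of 2838 (3.74%, 3.07 to 4.50) above 70%. In KO1 the same lowest and highest bins held 0.126% and 0.740%, and in KO2 they held 0 of 793, which allows up to 0.378%, and 2.11%. In the same bins the Empty IgG list held 0 of 793, with the same limit, and 0.669%, and the other IgG list 0.252% and 0.564%. BRG1 control peaked at 33.0% of promoters with 60 to 70% GC and held 27.3% above 70%.

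**Figure D5:**
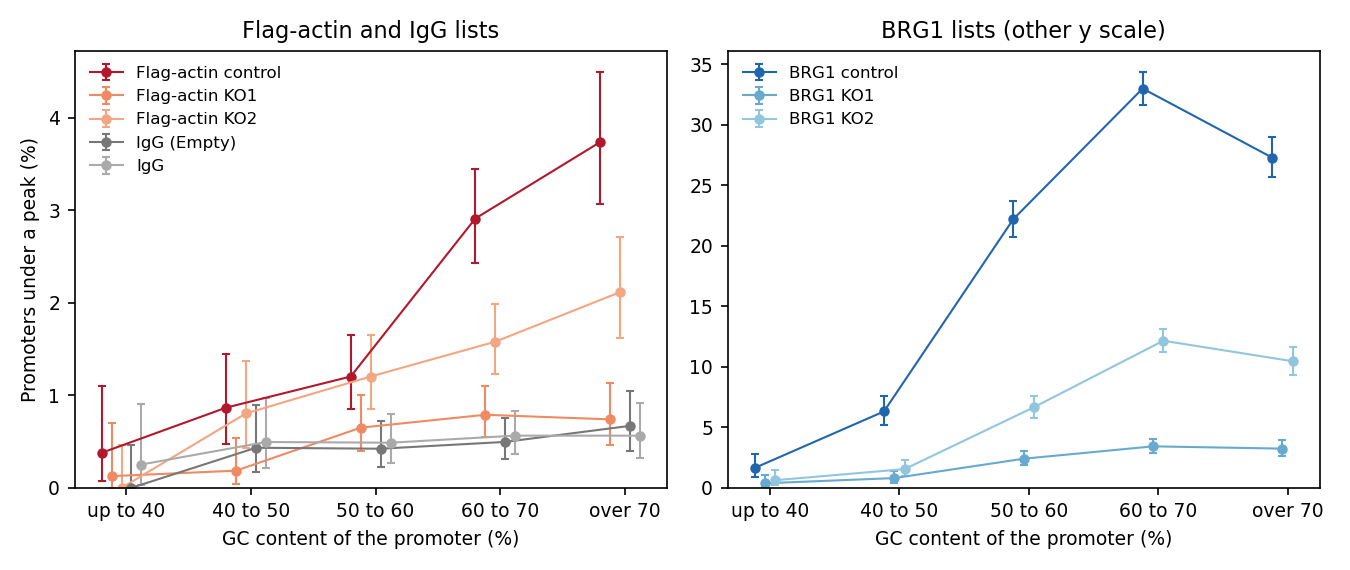
Share of promoter windows under a peak (y axis, %, other scale at right) by GC content of the window (x axis, %), with exact 95% binomial intervals, for the Flag-actin and IgG lists at left and the BRG1 lists at right. The Flag-actin control is highest above 70% GC (3.74%), and BRG1 control at 60 to 70% (33.0%).

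The GC box and the CCAAT box were less frequent in promoters under Flag-actin control peaks than under BRG1 control peaks. The letters were searched on both strands of the 300-base windows, and a match is a description of the letters only. The GC box GGGCGG was found in 193 of 289 promoters under Flag-actin control peaks (66.8%, 61.03 to 72.2), in 57.7% of all promoters and in 76.4% (74.8 to 77.9) under BRG1 control. Among promoters above 60% GC, the share under Flag-actin control was below that of all promoters and still below BRG1 control. The shares were 74.5% (68.4 to 79.9) under Flag-actin control, 81.0% of all and 85.1% (83.6 to 86.6) under BRG1 control. The CCAAT box was found in 30.8% (25.5 to 36.5), against 37.1% of all promoters and 45.8% under BRG1 control. The AP-1 site TGACTCA was in 4.15% (2.16 to 7.14), in 3.65% of all and in 3.33% under BRG1 control, so its intervals overlapped. The TATA letters TATAAA were in 7.61% (4.83 to 11.3), 10.02% of all and 4.58% under BRG1 control. Among the 61 and 66 promoters under gene-end peaks of the Empty IgG list and the other IgG list, the GC box was in 65.6% and 63.6% and the CCAAT box in 29.5% and 46.97%. Those shares are at any GC. Above 60% GC, the GC box was in 85.4% (70.8 to 94.4) in the Empty IgG list and 80.5% (65.1 to 91.2) in the other. Flag-actin KO1 and KO2 were there at 87.5% (75.9 to 94.8) and 79.2% (71.2 to 85.8). The GC box letters were in all 6 windows printed above and the AP-1 letters in that of ESYT3. Those windows were chosen for print, AUTS2 and ESYT3 after their values were seen. Other windows under these peaks, such as those of SUSD5, PTPRN and OTOP2, held no GC box letters.

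Genes on chromosome 17 were held most often. There 24.4% of 960 genes held a Flag-actin control peak, followed by chromosome 22 with 19.9%, 10 with 16.5% and 16 with 15.99%. The lowest shares were on X, with 14 of 722 genes (1.94%), and on chromosome 4, with 5.81%. The number of eligible control peaks also differed by chromosome, and its part in these shares was not tested. Chromosome 17 had the most, 1782, with 14.98% of them at gene ends, below chromosome 19 with 15.4%. X had 70, with 18.6% at gene ends, the highest of any chromosome, and chromosome 4 had 439, with 8.66%. By genes held, chromosome 17 also had the highest share in KO1 (7.71%), and was at 11.04% in KO2, where chromosome 10 was highest at 11.4%. In BRG1 control, chromosome 17 was at 37.6%, close to chromosomes 10 and 8 at 37.3% each. Of the 10 strongest peaks, 4 were on chromosome 17, at TBX4, CSH2, KIF19 and SAMD14.

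Peaks were often close to one another. Of the 1994, 921 (46.2%) had another eligible control peak within 10 kb, as did 40.5% of those away from gene ends. Most genes held 1 peak (1769 genes), 190 held 2, 25 held 3 and 5 held 4. The 5 were TBX4, IL27, a cytokine subunit, CHAD, a cartilage matrix protein, RNF157, a ubiquitin ligase, and LOC124901647. At TBX4 the peaks lay 991 and 311 bp upstream of the start, 289 bp downstream of it and 805 bp inside the transcript end, at percentiles 98.8, 28.1, 53.4 and 75.3, and only the first was in a knockout list. At CHAD, whose 4 peaks were at percentiles of 11.9 to 50.4, 1 transcript-end peak overlapped BRG1 control. Both ends were held at 122 genes, the highest by signal being TBX4, GDF1, POTEH, LOC124901638 and CORO1B. A peak belonged to 1 gene in 1761 cases, to 2 in 216 and to 3 in 17. NDRG4 and SETD6, a stress-response gene and a lysine methyltransferase, shared a 530 bp peak at percentile 77.3 that overlapped KO2 (82.3) and BRG1 KO2 (55.0).

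At the limits of the rule, the peaks just inside and just outside overlapped in width and signal. TSEN54, KCNA7 and ATG2A lay 1000, 999 and 999 bp from a gene end, with widths of 310, 240 and 300 bp and percentiles of 16.2, 61.3 and 35.1. Outside it, CPNE2 and NFE2L1 lay 1003 and 1005 bp away, with 170 and 320 bp and percentiles of 35.5 and 39.8. At the 5 Mb limit the nearest inside were at CFAP97 (60.8) and TMEM235 (19.01 and 39.8), and the nearest outside at CAMTA2 (59.3), ADAMTS13 (15.8) and RIPK4 (41.6). The 800 gene-end peaks within 5 Mb of a chromosome end overlapped KO1 in 2.88%, KO2 in 4.50% and BRG1 control in 6.75%.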

How the data were processed

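CUT&RUN peak lists of 8 libraries were used as the authors deposited them, 1 per library and without a header. Per the submitters' processing notes, the build was hg38 and the tools were SEACR, MACS2, BWA, bedtools 2.30.0, SAMtools, FastQC 0.12.0, deepTools and Trim Galore 0.4.5, with the order and settings not given in the sources used here. The deposited columns hold the total and the maximum signal of each peak, in the layout of SEACR, and their normalization and the read depth are not given. A SEACR threshold keeps a top share of signal blocks, so list length does not measure binding.

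Overlap of at least 1 bp, distances and exact binomial intervals came from scipy 1.17.1, pandas 2.3.3 and numpy 2.4.6 under Python 3.11.15. The interval functions were checked on simulated data and against bedtools 2.31.1, with 0 disagreements over 19000 intervals. Contigs and chromosome Y were left out (1241 of 40019 peaks in the Flag-actin control list). Gene ends came from the RefSeq table of GRCh38 (19974 protein-coding genes), and strand, known for 15813, and sequence came from the RefSeq promoter table, from which 1 promoter per gene within 1 kb of the annotated start was kept. Chromosome lengths are those of hg38. Exons and UTRs were not assigned.

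The peaks and the 25 gene lists were chosen with earlier results of these data known. Named genes are those of the 10 peaks with the highest signal, of the 10 highest shared with both knockout lists or with BRG1 control, the 5 widest, narrowest, most often held and shared, up to 4 per gene list, and those at the limits of the rule. The alternatives tried were other windows (500 bp and 2 kb), assignment by any base, other IgG filters, other chromosome-end margins (10 Mb and none), the top 50% of the list, other overlap rules, lists of equal length and each knockout library alone. KO1 and KO2 are treated as separate samples, and the spread between them may be technical. Some genes that the naming rule picks are not reported here.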

Additional observations from a re-analysis of the deposited data

How the results depend on the processing

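Values that moved beyond their interval or, for counts, by over 1.5 times are grouped by setting here. A window of 500 bp gave 1144 peaks at 1170 genes, with 10.3% in BRG1 control, and one of 2 kb gave 3163 peaks at 3026 genes, with 7.08%. With the Flag-arm IgG list alone as filter, 1.49% were in both Flag-actin knockout lists. With no IgG filter, the mean share in the knockout lists was 18.7%, in both 16.1% and in BRG1 control 23.6%, with a median width of 260 bp and a median percentile of 44.97. The top 50% of the control list gave 657 peaks at 706 genes, 5.10% in the knockout lists, 1.83% in both, 11.3% in BRG1 control, 340 bp and percentile 62.7. An overlap of 50% of the shorter peak gave 5.12% in BRG1 control. Counting peaks within 500 bp as shared gave 6.77% in the knockout lists, 2.01% in both and 20.96% in BRG1 control. Lists cut to the length of the shortest (23651 peaks) gave 959 peaks at 1007 genes, 4.17% in BRG1 control, 320 bp and percentile 56.5. Larger windows and shorter lists change these counts by construction, and for the other shifts the cause was not tested. Each knockout library alone gave 2.11% to 4.26%.

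The same shares for peaks away from gene ends were added after seeing the data. In BRG1 control they were 6.81% with the Flag-arm IgG list alone, 6.24% in the top 50%, 3.86% with the overlap of 50%, 8.21% within 500 bp and 1.66% in lists of equal length, each below the share at gene ends, and 42.8% with no IgG filter, above it. In the knockout lists their mean moved to 5.78% with the Flag-arm IgG list alone, 41.3% with no IgG filter, 6.12% in the top 50% and 6.505% within 500 bp. The lists hold no depth, so a missing overlap cannot be told apart from a site below the threshold of a list. No paired analysis was possible because there was 1 control library.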
